A study of Mus musculus with 3 samples.

Results

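The cells described here were myeloid cells of mouse dorsal skin that carried abundant Lyz2 transcripts (lysozyme M) and few or no transcripts of the complement component C1q. They were chosen from single-cell RNA libraries of collagenase-digested skin, made by droplet capture of transcript 3' ends, in which each captured molecule is counted once by its unique molecular identifier (UMI). A barcode stands for 1 droplet, and barcodes with 500 or more genes, 1000 or more UMIs and no more than 15% of UMIs from mitochondrial genes were kept. It was a member if it had at least 5 Lyz2 UMIs, at least 2 of the 7 myeloid genes Ccr2, Cybb, Csf1r, Cd14, Ccl6, Ccl9 and Ear2, at most 1 UMI of C1qa, C1qb and C1qc together, no UMI of Cd3e, Cd3g or Pecam1, and at most 1 of the 7 dendritic genes Cd207, Flt3, Zbtb46, Ccr7, Cd209a, Xcr1 and Clec9a. This rule found 222 of 33204 kept barcodes, out of 62746 deposited.

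Each group was 1 library, and the labels do not say how many mice went into it. The young control was 2.5 months old and carried floxed Yap1 and Wwtr1 alleles (Yap1 fl/fl; Wwtr1 fl/fl) without a recombinase. The young knockout had the same age and floxed alleles and also R26-CAG-CreER, a tamoxifen-inducible Cre driven by a ubiquitous promoter, so that deletion was not limited to 1 cell type. Both young groups received tamoxifen at 0.11 mg/g, on 2 days a week for 4 weeks. The old control came from wild-type, untreated skin of 24 months, so it differed from the young control in age, alleles and tamoxifen together. Since a group was a single library, samples could not be tested against each other and no difference below has a replicate check. Values in square brackets are exact 95% intervals, which cover counting error only.

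Monocytes leave the blood, enter skin with the help of the chemokine receptor Ccr2, and can become macrophages or antigen-presenting cells there. Classical mouse monocytes carry the surface protein Ly6C, while cells that have settled in tissue lose it and gain MHC class II and lectins such as Mgl2. Yap1 and Wwtr1 encode YAP and TAZ, transcriptional co-activators restrained by the Hippo pathway.

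Genes that varied widely among these cells were Ly6c2 (Ly6C), Plac8, Ear2 (an eosinophil-associated ribonuclease), Retnla (the secreted protein RELM-alpha, also called Fizz1) and Mgl2. Their promoter sequences, from 250 bases before to 50 bases after each start site, are shown because Ly6c2 and Plac8 varied together across cells and against Ear2 and Mgl2. The sequences are from RefSeq on GRCm38.p6 and read 5′ to 3′ on the strand of the gene. Capitals mark GAGGAA, the core letters bound by the myeloid factor PU.1, and TTGCNNAA, a form of the C/EBP site, each searched on both strands (on the other strand GAGGAA reads TTCCTC).
Ly6c2 (chr15:75111922-75112221, minus strand): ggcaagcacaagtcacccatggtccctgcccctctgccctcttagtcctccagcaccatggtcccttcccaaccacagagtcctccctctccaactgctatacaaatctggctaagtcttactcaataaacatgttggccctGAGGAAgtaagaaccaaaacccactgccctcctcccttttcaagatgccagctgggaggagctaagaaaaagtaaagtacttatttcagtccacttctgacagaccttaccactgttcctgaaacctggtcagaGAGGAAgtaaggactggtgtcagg
Plac8 (chr5:100572156-100572455, minus strand): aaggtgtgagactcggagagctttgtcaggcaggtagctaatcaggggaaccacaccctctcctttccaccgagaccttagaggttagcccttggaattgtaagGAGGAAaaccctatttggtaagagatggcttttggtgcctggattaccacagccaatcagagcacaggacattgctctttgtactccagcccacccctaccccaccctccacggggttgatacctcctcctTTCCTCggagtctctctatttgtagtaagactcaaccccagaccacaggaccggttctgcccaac
Ear2 (chr14:44102404-44102703, plus strand): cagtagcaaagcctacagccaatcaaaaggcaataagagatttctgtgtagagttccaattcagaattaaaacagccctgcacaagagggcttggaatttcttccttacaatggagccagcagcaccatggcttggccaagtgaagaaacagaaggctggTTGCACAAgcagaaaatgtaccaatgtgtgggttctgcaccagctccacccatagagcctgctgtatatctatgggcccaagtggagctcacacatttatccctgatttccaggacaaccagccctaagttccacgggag
Mgl2 (chr11:70130107-70130406, plus strand): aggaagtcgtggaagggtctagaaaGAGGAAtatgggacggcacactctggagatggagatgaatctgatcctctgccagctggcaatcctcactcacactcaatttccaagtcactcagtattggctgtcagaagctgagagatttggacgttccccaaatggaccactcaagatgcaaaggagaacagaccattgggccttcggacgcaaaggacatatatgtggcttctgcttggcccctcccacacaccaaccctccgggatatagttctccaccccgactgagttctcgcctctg
Retnla (chr16:48842359-48842658, plus strand): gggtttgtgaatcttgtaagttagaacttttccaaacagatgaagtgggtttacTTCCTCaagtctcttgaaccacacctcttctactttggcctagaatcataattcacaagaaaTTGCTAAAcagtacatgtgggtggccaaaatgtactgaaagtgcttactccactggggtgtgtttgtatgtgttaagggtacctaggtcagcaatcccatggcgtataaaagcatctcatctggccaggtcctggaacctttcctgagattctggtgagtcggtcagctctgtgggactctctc
Of the 32851 RefSeq promoter windows of this length, 28.3% held GAGGAA and 10.8% held TTGCNNAA. Ly6c2 and Plac8 each had 2 matches to GAGGAA and none to TTGCNNAA, Mgl2 had 1 match to GAGGAA, Ear2 had 1 match to TTGCNNAA, and Retnla had 1 of each. Chil3 and Fcgr1 also varied with Ly6c2 across cells. The window of Fcgr1 had 1 match to GAGGAA and that of Chil3 held neither motif. The window of Lyz2 held neither as well. These matches describe the letters only.

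The libraries differed in depth and mitochondrial share. Kept barcodes of young control, knockout and old control had medians of 5081.5, 2040 and 1743.5 UMIs, and 12.3%, 62.4% and 19.4% of deposited barcodes were over the mitochondrial limit. The members had medians of 5470.5, 10621 and 4677 UMIs and summed totals of 1259864, 105208 and 63084. No barcode was a member in more than 1 library, and 1 young control member barcode was also a kept barcode in each of the other libraries. Xist, which is expressed from the inactive X chromosome, stood at 1126 CPM (UMIs divided by the summed UMIs of the cells, the usual depth-scaled level) in young control members and at 0 in knockout members. The Y-linked gene Ddx3y showed the reverse, with 16 UMIs in 6 of 10 knockout members and 0 in the others. These genes mark the knockout as male and both controls as female. The effects of sex and genotype cannot be told apart. Transcripts of other cells also differed: the 10 keratinocyte markers summed to 3364 CPM in young control members, 124 in knockout members and 3186 in old control members. The 8 fibroblast markers summed to 4881, 95.05 and 269 CPM. Of these 18 markers, 0 were undetected in young control members, 9 in knockout members and 3 in old control members. The part of these transcripts in the gene differences below was tested only by subtraction of the other barcodes' profile and by comparison with their levels.

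The name monocyte-like fitted only some of the members. In the young control, all 200 members had Lyz2, 166 had Ccr2 and 169 had Cybb, a subunit of the phagocyte NADPH oxidase, but these genes had chosen the cells. Among monocyte genes that the rule did not use, Ly6c2 was detected in 40 cells (20% [14.7 to 26.2]), Plac8 in 63 and Chil3, a chitinase-like protein of monocytes, in 26. MHC class II transcripts were detected in most cells: 192 of 200 young control members (96.0% [92.3 to 98.3]) had at least 2 of 6 class II genes, and Cd74, the class II invariant chain, stood at 17354 CPM with UMIs in 193 cells. Free RNA also gives class II UMIs, and H2-Aa was detected in 34.9% of T cell and 43.4% of keratinocyte barcodes of this library, against 184 of 200 members, and Cd74 in 56.2% and 62.3%. The level separates them further, since H2-Aa stood at 7592 CPM in members and 655 CPM in the other barcodes. The lectin receptor Mgl2 was found in 142 cells and the mannose receptor Mrc1 in 145. Of the neutrophil genes, S100a8 had 2 UMIs and S100a9 had 0 over the 200 cells, and Cxcr2 and Retnlg were at 0. Csf3r, also listed as a neutrophil gene, was found in 38 cells (19% [13.8 to 25.1]), against 0.204% of T cell barcodes. Proliferation genes reached the limit of 2 of 6 in 9 cells. Because Ly6c2 was not detected in 160 of the 200 cells, they are called Lyz2-high C1q-low cells here.

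Shares of cells with a UMI have to be read against free RNA. In young control barcodes of T cells (at least 2 UMIs of Cd3e and Cd3g; median 3242 UMIs), 11.1% had a Lyz2 UMI, 2.85% an Ear2 UMI, 13.5% a Retnla UMI and 9.47% a Ly6c2 UMI. In keratinocyte barcodes (at least 20 UMIs of Krt5 and Krt14; median 9384.5 UMIs) the shares were 14.7%, 5.003%, 16.0% and 0.715%. Members had these genes in 200, 150, 81 and 40 of 200 cells. A Retnla UMI in a member can thus be background, and members were counted as Retnla cells below only from 10 UMIs on. The C1q limit touches free RNA as well, since a C1qa UMI was present in 8.86%, 3.48% and 0.758% of the T cell barcodes of young control, knockout and old control.

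The share of these cells was far higher in the young control than in either other library. The young control had 200 members among 11722 kept barcodes (1.71% [1.48 to 1.96]). The knockout had 10 among 9408 (0.106% [0.0510 to 0.195]), and the old control had 12 among 12074 (0.0994% [0.0514 to 0.174]). Against the young control the share was 16.1-fold lower [8.55 to 33.99] among knockout barcodes and 17.2-fold lower [9.61 to 33.8] among old ones. The intervals of both low libraries overlapped each other almost fully. After every kept barcode was thinned to 1500 UMIs and shallower ones were left out, 184 of 10693, 11 of 6844 and 11 of 7290 barcodes met the rule, which is 1.72%, 0.161% and 0.151%. The order depended on 1 setting: with at most 1 gene of the keratinocyte and fibroblast panels allowed, 2, 4 and 1 members were left and the knockout share (0.0425%) was above that of the young control (0.0171%), in which 195 of 200 members had the fibroblast panel. Whether fewer such cells were in the skin or fewer survived digestion and capture was not tested, and digestion and barcode selection before deposit are common to the counts.

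Both comparison classes were also rarer in the knockout and the old control, but not to the same degree. C1q-positive barcodes had at least 5 C1q UMIs and no Lyz2 minimum, and otherwise met the same rule. They thus differed from members in the Lyz2 limit as well as in C1q. They made up 1.35%, 0.287% and 0.199% of the 3 libraries, which is 4.70-fold lower [3.11 to 7.35] for knockout and 6.78-fold lower [4.40 to 10.9] for old control. The dendritic class had at least 2 of the dendritic genes, at most 1 C1q UMI and no UMI of Cd3e, Cd3g or Pecam1. It made up 1.95%, 0.149% and 0.547%, which is 13.1-fold lower [7.67 to 24.4] and 3.57-fold lower [2.71 to 4.77]. This class required no Lyz2 or other myeloid gene. Its young control barcodes held 8572 CPM of keratinocyte and 4683 CPM of pan-leukocyte markers, against 3364 and 8199 CPM in members. Neither class was thinned to a common depth. The interval for Lyz2-high C1q-low cells lay apart from that for C1q-positive cells in the knockout and from that for dendritic cells in the old control, and overlapped the other. Of all barcodes in the 3 classes, Lyz2-high C1q-low cells were 34.1% [30.2 to 38.1] in young control, 19.6% [9.82 to 33.1] in knockout and 11.8% [6.23 to 19.6] in old control. The first and the last of these intervals did not overlap.

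**Figure D1:**
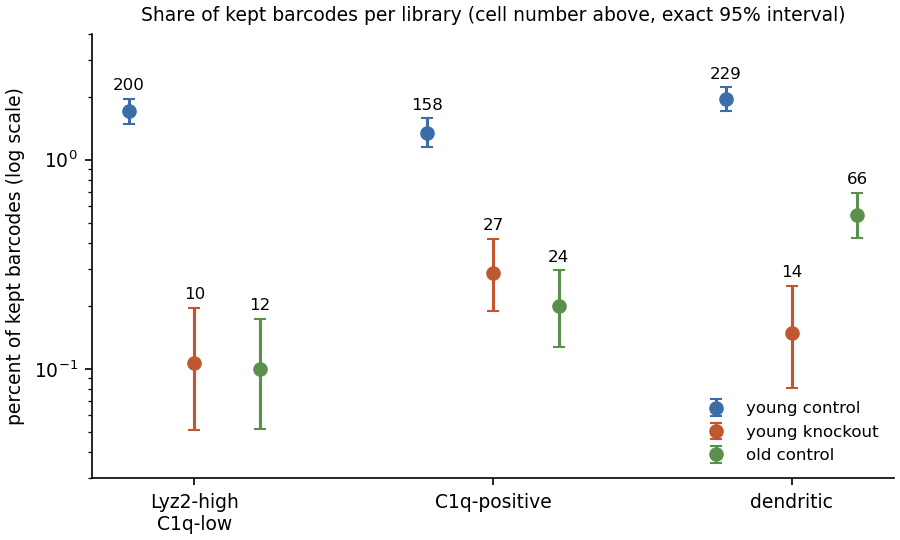
Percent of kept barcodes (log axis) that met the rule for Lyz2-high C1q-low, C1q-positive and dendritic cells in each library, with exact 95% intervals for counting error and the number of cells above each point. The 200 young control Lyz2-high C1q-low cells stand at 1.71%, above 0.106% (knockout) and 0.0994% (old control).

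Cells lay on both sides of each of the rule's limits. In the young control, 5 barcodes failed with 4 Lyz2 UMIs and 7 members had 5. On the C1q side, 162 members had 0 and 38 had 1 C1q UMI, while 14 barcodes failed with 2 and 8 with 3. Retnla stood at 1573, 3451, 5459 and 9901 CPM over these 4 steps, so that cells with a C1q UMI carried more Retnla. On the dendritic side, 111 members had none and 89 had 1 dendritic gene, and 41 barcodes failed with 2 and 20 with 3. The class II gene H2-Aa stood at 5898, 9405, 12686 and 9128 CPM over these 4 steps, with no steady rise, and Lyz2 at 8106, 4721, 2237 and 1233 CPM.

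Within the young control the members spread between a Ly6c2 end and an Mgl2 end, with Retnla cells apart from Ly6c2 cells. Across the 200 cells, UMI shares of Ly6c2 and Plac8 varied together (Spearman's rho 0.76), as did Ly6c2 with Chil3 (0.56) and with Fcgr1, the high-affinity IgG receptor (0.55). Mgl2 varied with Cd209a (0.61), H2-Aa (0.53) and Mrc1 (0.47). Plac8 ran against Ear2 (−0.62), Mgl2 (−0.54) and H2-Aa (−0.47). Retnla went with Lpl, lipoprotein lipase (0.51). The points are cells of 1 library that share its depth and free RNA, so the coefficients describe that library only. Cd209a and Ear2 were among the genes of the rule.

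**Figure D2:**
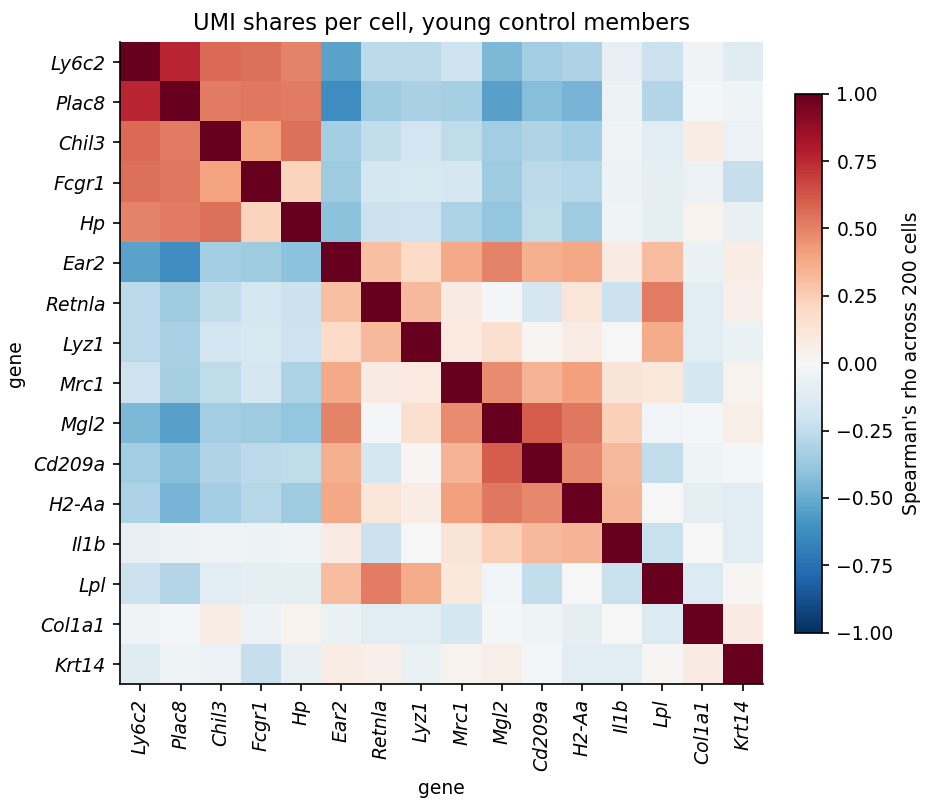
Spearman's rho between the UMI shares of 16 genes across the 200 young control Lyz2-high C1q-low cells, from −1 (blue) to 1 (red). Ly6c2, Plac8, Chil3, Fcgr1 and Hp form a red block that is blue against Ear2 and Mgl2, while the fibroblast gene Col1a1 and the keratinocyte gene Krt14 stay pale against the rest.

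The spread can be described by 3 ranges of cells, which were set after the values were seen, are not cell types, and carry no test. Ly6c2 was detected in 40 young control members (20%), 38 others had at least 10 Retnla UMIs (19.0% [13.8 to 25.1]), and the remainder had neither (61.0% [53.9 to 67.8]). No cell had both Ly6c2 and 10 Retnla UMIs. The median depths of 5348.5, 6732 and 5439 UMIs were similar. In the knockout the 3 ranges held 4, 0 and 6 cells, and in the old control 0, 2 and 10.

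Cells with Ly6c2 carried further monocyte genes. Plac8 stood at 2559 CPM in them (39 of 40 cells), against 7.94 in Retnla cells and 151 in the rest. Chil3 stood at 931 CPM (20 cells), against 0 and 67.3. Fcgr1 (137 CPM) and the haptoglobin gene Hp (180 CPM) were at 0 in Retnla cells and below 9 CPM in the rest. Interferon-linked genes were part of this end: Ifitm3 stood at 3408 CPM against 738 and 683, and Irf7, a regulator of interferon genes, at 195 against 3.97 and 12.5. Lyz2 (13279 CPM against 7499 and 4409) and Cybb (1862 against 544 and 563) were highest in the Ly6c2 cells too, but both are genes of the rule. Class II was lower there but not absent: H2-Aa stood at 4641 CPM in 29 of the 40 cells, against 7900 and 8250. Ear2 was low, at 82.9 CPM against 1671 and 1141.

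In cells with Retnla several other genes were high. Lpl stood at 2810 CPM in them, against 156 in Ly6c2 cells and 573 in the rest. Fn1, fibronectin, stood at 2298 against 878 and 695. The neutrophil-attracting chemokine Cxcl2 stood at 2993 against 278 and 796, and Ccl2, a ligand of Ccr2, at 508 against 171 and 142. Lyz1, the neighbouring lysozyme gene, stood at 2346 against 34.1 and 619. The receptor-like gene Fcrls was found in 34 of the 38 cells (595 CPM), in no Ly6c2 cell and in 60 cells of the rest (194 CPM). Il1b, interleukin-1 beta, was lowest in these cells, at 337 CPM against 726 in Ly6c2 cells and 1461 in the rest.

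In cells with neither gene, Cd209a, a C-type lectin and 1 of the dendritic genes of the rule, stood at 622 CPM (70 cells), against 14.6 and 55.6. Cd209d (410 CPM), the C-type lectin-like gene Klrb1b (192 CPM) and the haemoglobin scavenger receptor Cd163 (107 CPM) were also highest there. Mgl2 stood at 958 CPM against 161 in Ly6c2 cells and 544 in Retnla cells. The rule admits 1 dendritic gene, so that cells with Cd209a are members at all.

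**Figure D3:**
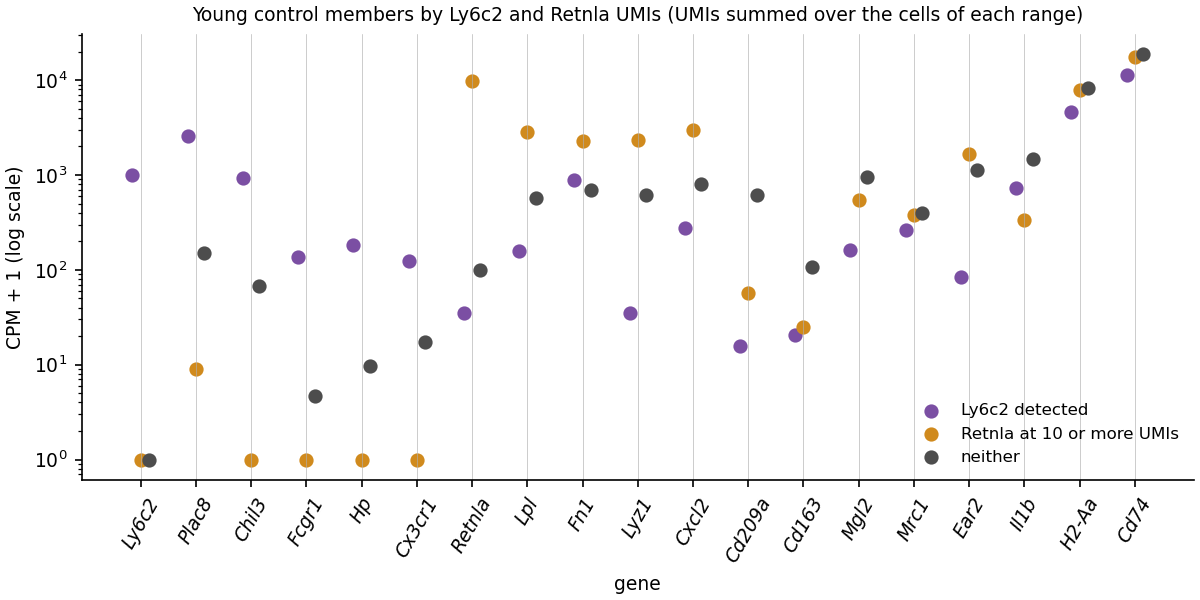
CPM + 1 (log axis) of 19 genes in the 3 ranges of young control Lyz2-high C1q-low cells, from UMIs summed over 40 cells with Ly6c2, 38 cells with at least 10 Retnla UMIs and the cells with neither. Fcgr1, Hp and Chil3 are at 0 in Retnla cells, and Cd74 and H2-Aa are high in all 3 ranges.

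A few sequence-sharing relatives limit these readings. Of the 50-base windows in the last 400 bases of Ly6c2 transcripts, 34.9% also occur in Ly6c1, and 27.4% of those of Ear2 occur in Ear1. For Lyz2 and Lyz1 the shares are 17.7% and 19.1%. Reads in such windows cannot be assigned to 1 gene. Ear1, Ear6 and Ear10 had 0 UMIs in members of every library. Retnla shared no window with Retnlg, nor Mgl2 with Clec10a.

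Genes were compared between libraries from UMIs summed over members. A gene was called when its mean CPM over the 3 libraries was at least 20, its ratio was at least 2 or at most 0.5, the nearer end of the interval lay past 1.5-fold, and at least 5 members of the higher library had a UMI. Such a call describes these libraries. Both comparisons share the young control. In the knockout 5 cells are a large part of the 10 members, so that genes found only in its 4 Ly6c2 cells could not be called higher however large their ratio.

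Knockout against young control asks what loss of YAP and TAZ is accompanied by at equal age and treatment. In knockout members, 86 of 5438 genes were called higher (1.58%) and 156 lower (2.87%), and the median log2 ratio was −0.01. Interferon, heat shock and inflammatory genes were prominent among the higher ones, and Retnla, immediate-early genes and transcripts of other skin cells among the lower ones. Of the 156, 65 were more than 3 times higher in the other barcodes of the young control than in its members. Yap1 and Wwtr1 themselves give no check of deletion in these cells. They had 24 and 41 UMIs in the 200 young control members (19.1 and 32.5 CPM) and 0 in the knockout's, but stood higher, at 78.8 and 127 CPM, in the other young control barcodes. In old control members they had 2 and 0 UMIs.

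Retnla (ENSMUSG00000061100, chromosome 16, 48842551 to 48844461) was nearly missing from the knockout. It stood at 2028 CPM [1950 to 2108] in young control members, with UMIs in 81 cells and up to 241 per cell, at 57.0 CPM [20.9 to 124] in knockout members, where 1 cell held all 6 UMIs, and at 935 CPM [712 to 1206] in old control members, where 3 cells held 59. The knockout level was 35.6-fold lower (ratio 0.0281 [0.0103 to 0.0613]). C1q-positive cells showed the same order, with 5752, 0 and 2269 CPM, and so did all other kept barcodes, with 126, 0.329 and 9.72 CPM. No knockout T cell barcode (0 of 201) and no knockout keratinocyte barcode (0 of 509) had a Retnla UMI. Low Retnla was therefore found in the whole knockout library and not in these cells alone. Ear2 (532 against 1075 CPM) and Clec10a, a lectin receptor (38.02 against 165 CPM), were the other called members of the alternative activation list, of which 3 of 9 tested genes were lower and 0 higher. Ear2 is a gene of the rule, so its level among members is a description.

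Interferon response genes stood higher in knockout members. Of 18 tested, 6 were called higher (Isg15, Ifitm3, Ifi27l2a, Ifi204, Ifi209 and Zbp1) and 0 lower, 16 lay above 0, and the median log2 ratio was 1.59. Isg15 (ENSMUSG00000035692, chromosome 4, 156199424 to 156200818), a ubiquitin-like protein induced by interferon, was found in 12 of 200 young control members, in 8 of 10 knockout members and in 2 of 12 old control members. Its levels were 15.1 CPM [9.08 to 23.6], 361 [256 to 496] and 31.7 [3.84 to 114], and the knockout ratio was 23.95 [13.5 to 44.0]. It was higher in both ranges that could be compared, at 759 against 58.5 CPM in cells with Ly6c2 and at 158 against 6.23 CPM in cells with neither gene. The rest of the knockout library shared this, with 195 CPM against 16.9 in the other barcodes, and an Isg15 UMI was present in 36.3% of knockout and 8.35% of young control T cell barcodes. Ifih1, an RNA sensor, stood at 276 against 27.0 CPM, though 1 cell held 55.2% of its knockout UMIs. Ifitm3 was at 7503 CPM in the 4 knockout cells with Ly6c2 and at 115 CPM in the 6 others. In members with fewer than 2 classical monocyte genes, of which the knockout held 6, the list's median was 0.55. Isg15 missed the limit of 5 cells there, with a log2 ratio of 4.47.

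Heat shock genes were higher in 5 of 11 cases and lower in 1 (Hspb1), with a median of 1.06. Hspa1b (ENSMUSG00000090877, chromosome 17, 34956436 to 34959238) and Hspa1a encode the inducible chaperone HSP70. Hspa1b stood at 157 CPM [136 to 181] in 82 of 200 young control members and at 3032 CPM [2708 to 3384] in 7 of 10 knockout members, a ratio of 19.3 [16.1 to 23.1]. The ratio of Hspa1a was 18.1 [14.9 to 21.97]. Hsp90aa1, a cytosolic HSP90, was detected in all 10 knockout members, at 2224 against 413 CPM. C1q-positive cells of the knockout had these genes higher as well, 6.08-fold for Hspa1b and 5.48-fold for Hspa1a, and the other barcodes 652 against 406 CPM of Hspa1b. The median mitochondrial share of members was 5.02% in the knockout and 3.81% in the young control, and its part in these ratios was not tested.

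Inflammatory mediators were higher by fewer genes. Of 13 inflammatory cytokine genes, Tnf, Il1b and Il6 were called higher and none lower (median 0.49). Il1b stood at 3194 CPM in 9 of 10 knockout members and at 1117 CPM in 133 of 200 young control members, a ratio of 2.86 [2.53 to 3.22]. Of 11 chemokine ligands, 2 were called higher. Cxcl2 stood at 4429 against 1151 CPM, with UMIs in 8 of 10 and 78 of 200 members. Ccl4, an inflammatory chemokine, stood at 3270 against 321 CPM, but 1 knockout cell held 83.4% of its UMIs. Of 6 chemokine receptors, Cxcr4 and Ccrl2 were called higher. Areg (ENSMUSG00000029378, chromosome 5, 91139599 to 91148432), the growth factor amphiregulin, had the highest ratio outside the sex-linked genes, at 77.2 [37.97 to 177], from 58 UMIs in 5 knockout cells against 9 UMIs in 9 young control cells. A single knockout cell held 53.4% of these UMIs, and without the deepest member of each library it missed the limit of 5 cells, with a log2 ratio of 5.35. In C1q-positive cells the Areg ratio was 0.294 [0.0333 to 1.21], from only 2 knockout UMIs. Ccl4 (ratio 4.34 [3.78 to 4.99]), Tnf (2.28 [1.49 to 3.48]) and Cxcl2 (4079 against 1514 CPM) were higher in knockout C1q-positive cells too. Of 16 Fc and innate receptors, 3 were higher: Clec4n (dectin-2, 181 against 10.3 CPM), Cd14 and Lilrb4a. Cd14 is a gene of the rule.

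Immediate-early genes, which respond to dissociation and growth signals, had 5 of 15 called lower (Jun, Egr1, Ier2, Ier3 and Socs3), 0 higher and a median of −0.75. Egr1 stood at 266 against 1558 CPM, and at 2261 against 4045 CPM in the other barcodes. Of 13 classical monocyte genes 0 were called, and all 13 lay above 0, with a median of 1.13 (0.29 in members with fewer than 2 of the panel's classical genes): Ly6c2 stood at 789 against 162 CPM, Plac8 at 1777 against 514 and Chil3 at 627 against 195. These 3 met the limits on the ratio but not that on cells, with UMIs in 4, 4 and 3 knockout members. Fn1, in 8 knockout members, stood at 1150 against 1045 CPM and failed on its ratio. MHC class II had 1 of 10 called (Cd86, a costimulatory ligand) and a median of 0.27. Cd74 stood at 19333 against 17354 CPM, a ratio of 1.11 [1.06 to 1.17]. Of 8 Hippo pathway genes, the YAP target Cyr61 was called lower, with 0 knockout UMIs against 316 in the young control (at least 8.80-fold lower, against a floor of 3 UMIs). Cyr61 was higher in the other young control barcodes (735 CPM) than in the members (251 CPM). The median of the 8 was −0.61. Markers of keratinocytes (9 of 10), fibroblasts (7 of 7) and red cells (4 of 4) were called lower. For red cells 1 young control member held 97.9% of the Hbb-bs UMIs.

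Other low values in the knockout rested on few young control cells. Igfbp3, Dkk2 and Scd1 had 58.6%, 89.7% and 55.8% of their young control UMIs in 1 cell. Mt2, a metallothionein (85.5 against 756 CPM), and Zfp36l1, an RNA-decay factor (114 against 791 CPM), were spread over 162 and 161 young control cells. Both stood higher in the other young control barcodes, at 1529 and 1053 CPM. The keratinocyte gene Krt14 was likewise spread over 134 young control members.

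Old against young control asks how cells of skin aged 24 months compare with those of 2.5 months. Fewer genes were called in old members than in knockout members. The old members also had fewer summed UMIs, 63084 against 105208, so that fewer genes could pass the limits. Of 5434 genes, 16 were called higher (0.294%) and 36 lower (0.662%), and the median log2 ratio was 0.16. With TMM scaling the counts were 8 and 57, so the balance of directions depended on scaling. Fibroblast markers (7 of 7) and red cell genes (4 of 4) were called lower, and the other barcodes held less Col1a1 too, at 512 against 3917 CPM. Of 13 classical monocyte genes, Ly6c2, Chil3 and Fn1 were called lower and 0 higher, and the median was −0.72. Ly6c2 (ENSMUSG00000022584, chromosome 15, 75108158 to 75111970) and Chil3 (ENSMUSG00000040809, chromosome 3, 106147554 to 106167564) had 0 UMIs in the 12 old cells. Against a floor of 3 UMIs, Ly6c2 was at least 3.41-fold lower and Chil3 at least 4.09-fold lower. These bounds count UMIs and not cells, and in the young control Chil3 was found in only 26 of 200 members (13%). With 12 cells, 0 with a UMI has an upper bound of 26.5%. This is above the young control shares of cells with Ly6c2 (20%) and with Chil3. A lower share of cells with either gene was therefore not detectable at this number. Plac8 was still present, with 58 UMIs in 2 old cells, and stood at 919 against 514 CPM.

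Chemokine, lysozyme and Retnla transcripts were also lower in old members. Cxcl2 stood at 285 against 1151 CPM (ratio 0.248 [0.147 to 0.393]), from 18 UMIs in 5 old cells, with 72.2% of them in 1 cell. Lyz1 stood at 317 against 869 CPM and Retnla at 935 against 2028 CPM (ratio 0.461 [0.350 to 0.597]), with 85.0% and 61.02% of their old UMIs in 1 cell. Both were also lower in old C1q-positive cells.

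The genes called higher in old members had few UMIs. Krt17, a keratin, had the highest ratio, 6.99 [4.37 to 10.9], from 28 UMIs, and was higher in the other barcodes too, at 1013 against 369 CPM. Lilr4b, a receptor gene of myeloid cells, stood at 634 against 182 CPM, with 60% of its old UMIs in 1 cell. It was called higher in the knockout too, at 447 CPM. Sat1, a polyamine enzyme, stood at 1015 against 465 CPM (ratio 2.18 [1.66 to 2.83]), with 53.1% of its old UMIs in 1 cell. Ybx1, an RNA-binding protein found in 11 of 12 old cells, stood at 1189 against 592 CPM (ratio 2.01 [1.56 to 2.55]). MHC class II had 0 of 10 genes called and a median of 0.09, with Cd74 at 18150 against 17354 CPM. Interferon response (0 of 18 called, median −0.25), inflammatory cytokine (0 of 13, −0.36) and NADPH oxidase genes (0 of 7, 0.18) had no call. Il1b stood at 1997 against 1117 CPM, in 10 of 12 old cells. The transcription factor gene Spi1, which encodes PU.1, stood at 460 CPM in old and 475 CPM in knockout members, against 222 CPM in the young control, and was called in the knockout only, which is no test of a difference between them.

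**Figure D4:**
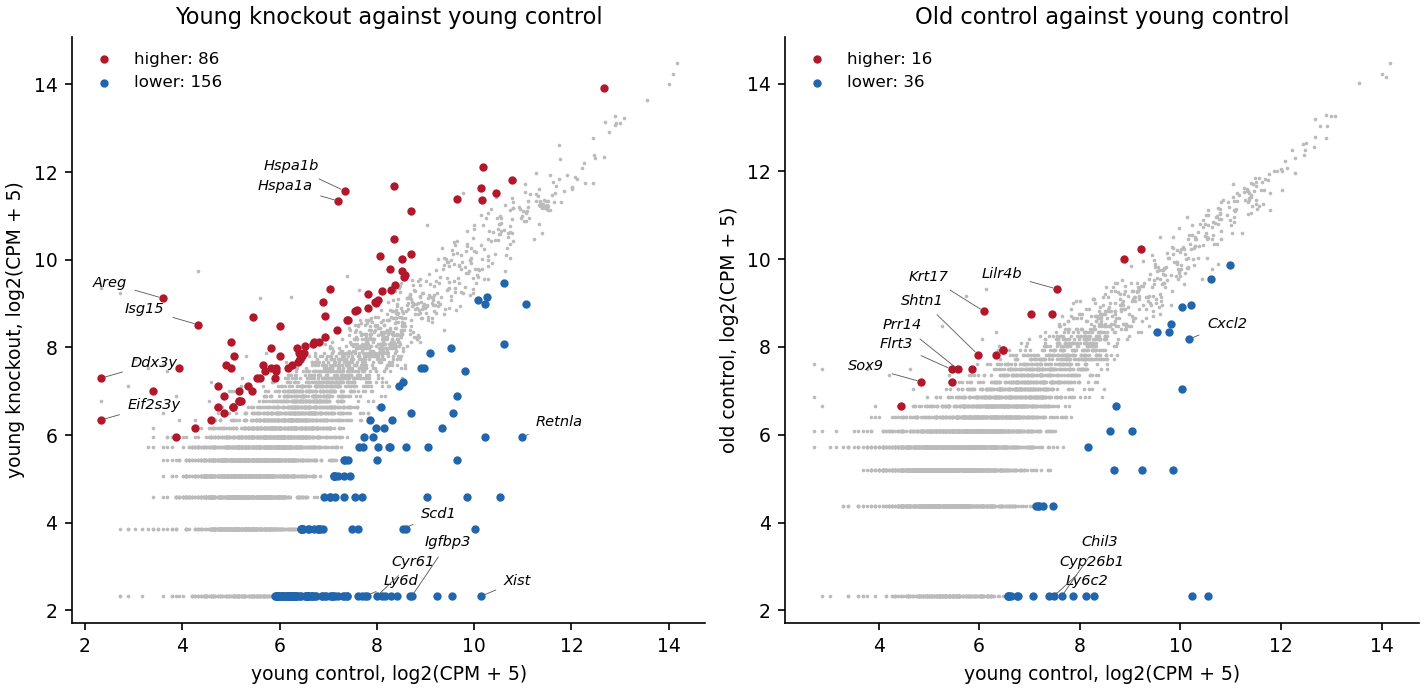
CPM of every tested gene in Lyz2-high C1q-low cells, as log2(CPM + 5), in the knockout (left) and the old control (right) against the young control, with called genes in red (86 and 16 higher) and blue (156 and 36 lower). Rows of points at the bottom are genes with 0 or few UMIs in the 10 knockout or 12 old cells.

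Cell by cell, the levels of the leading genes overlapped between libraries. Lyz2 ran from 5 to 178 UMIs in young control cells (median 29.5), from 21 to 390 in knockout cells (151.5) and from 5 to 121 in old control cells (10.5). H2-Aa ran from 0 to 182 (median 43), from 0 to 239 (71) and from 0 to 110 (23). The knockout cells were deeper, and in CPM their Lyz2 was at 15569 against 6471 and 5976. Lyz2 had chosen the cells, so these levels are a description.

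**Figure D5:**
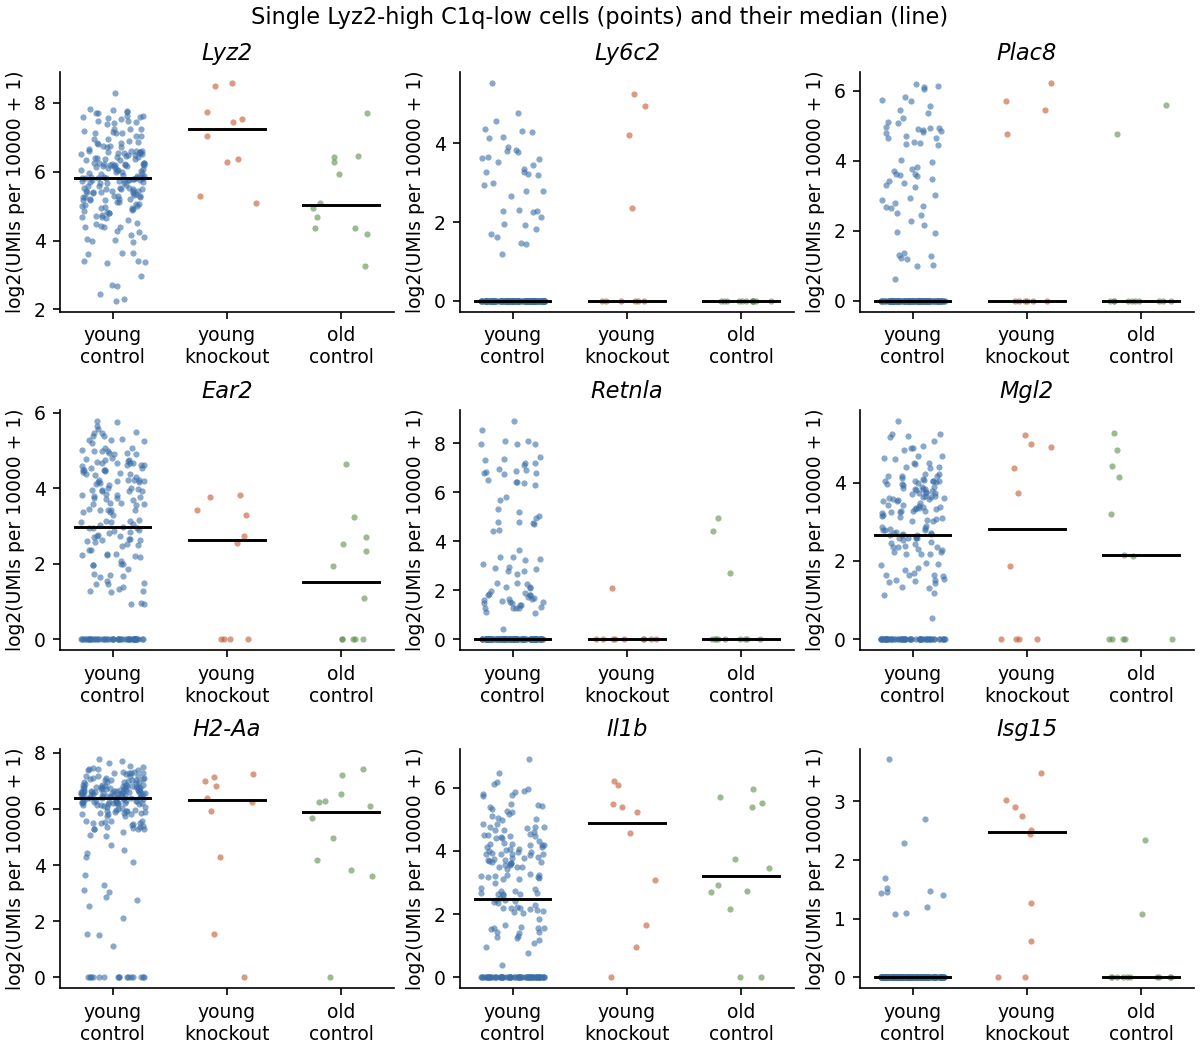
UMIs of 9 genes in each Lyz2-high C1q-low cell, scaled to a common total per cell and shown as log2(value + 1), in the 3 libraries; points are cells (200, 10 and 12) and lines are medians. Ly6c2 is at 0 in all 12 old control cells, Retnla is above 0 in 1 knockout cell, and Isg15 is above 0 in 8 of 10 knockout cells.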

How the data were processed

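The data came from 3 10x Genomics Chromium 3' v3.1 libraries of mouse dorsal skin, 1 per group. The authors deposited unnormalised UMI counts for each gene in each barcode. The software was Cell Ranger 3.1.0, per the file headers. Per the submitters' processing notes the build was mm10, and Seurat 3.1.5 was named. The selection of barcodes before deposit was not given in the sources used here. Gene coordinates are those of GENCODE on GRCm38 and count from 1.

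Members were found in the counts by the rule given in the report, and doublets were kept. Scrublet (scanpy 1.11.5) marked 2.82%, 0% and 0.00828% of kept barcodes by its automatic threshold, which had not worked in 2 libraries, so the 8% with the highest scores were left out as an alternative (21, 0 and 0 members). UMIs were summed per library and divided by the sum over all genes to give CPM. Intervals are exact (Poisson for CPM, Clopper-Pearson for shares, binomial split of both counts for ratios), at 95%, and cover counting error only. Log2 ratios had 0.5 added to each count. Fold bounds used a floor of 3 counts per library sum. The calling code was tested on simulated data. TMM factors came from edgeR 4.0.16 in R 4.3.3. Other packages were numpy 2.4.6, scipy 1.17.1 and pandas 2.3.3.

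Named genes were, per comparison, the 12 highest and 12 lowest called by the nearer interval bound, without mitochondrial, ribosomal, haemoglobin, immunoglobulin and unnamed genes and without genes over 3 times higher in other barcodes of the higher library. Genes of the rule, the targeted and sex-linked genes and the extremes of each of 37 lists were added. The rule, lists and panels were chosen with earlier results of these data known. The 3 ranges and their genes were chosen after their values were seen. Some genes that this rule names are not reported here.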

Additional observations from a re-analysis of the deposited data

Results flagged for a closer look

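A signal appeared in barcodes that the report does not use. Of 15 knockout barcodes that met the gene rule for Lyz2-high C1q-low cells, 5 exceeded the mitochondrial limit and were left out, which is 33.3% [11.8 to 61.6]. In the young control 6 of 206 did (2.91% [1.08 to 6.23]) and in the old control 0 of 12 (upper bound 26.5%). The knockout interval lay above that of the young control. In the knockout library as a whole 62.4% of deposited barcodes were over the limit, against 12.3% in the young control. The difference rests on 5 cells of 1 library, and its cause was not tested.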

How the results depend on the processing

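No paired analysis was possible because each group was 1 library and the labels give no replicate numbers. The young control share was the highest in every setting except 1, the limit of at most 1 gene of the keratinocyte and fibroblast panels, where the knockout's was. The young control share was 1.44% with at least 10 Lyz2 UMIs, 1.38% with no C1q UMI and 0.0171% with that panel limit. The knockout share was 0.213% at a 10% mitochondrial limit and 0.0425% with that panel limit, and the old share was 0.0497% with at least 10 Lyz2 UMIs and 0.00828% with the panel limit. The panel limit left 2, 4 and 1 cells, so no gene comparison was made with it.

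In cells thinned to 1500 UMIs, 21 genes were higher and 20 lower in the knockout, and 9 and 7 in the old control. After free RNA was subtracted, 63 were lower in the knockout and 33 higher in the old control. In the old control 44 were higher with at least 3 Lyz2 UMIs, 7 with at least 10, 8 with TMM scaling (57 lower), and 36 with cells weighted equally (102 lower). In members with fewer than 2 classical monocyte genes, a setting chosen after seeing the data, 48 were higher and 91 lower in the knockout, and 19 lower in the old control. Isg15, Hspa1a, Hspa1b, Areg, Tnf and Ccl4 were then not called, since a call needs 5 cells and 6 were left. Leaving out the deepest member of each library, also chosen after seeing the data, left called 9 of the 12 named higher and 11 of the 12 named lower genes of the knockout, and 7 and 8 of 12 in the old control. Thinned, 4 of 11 and 5 of 12 remained called in the knockout and 3 and 1 of 12 in the old control, and with at least 10 Lyz2 UMIs 2 of the 12 higher old genes did. Thinned, 29.0% of young control members with the classical monocyte panel became 19.0%, 51.5% with the macrophage panel became 19.0%, and 96.0% with the class II panel became 91.8%.

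The reported genes that changed direction were all in the old comparison: Flrt3 (−1.95) and Hspb1 (−1.13) with at least 10 Lyz2 UMIs and Igfbp3 (0.48) thinned. The cause was not tested. Over its 15 alternatives the log2 ratio of Isg15 in the knockout ran from 4.32 to 4.76 and that of Retnla from −8.51 to −4.51. Settings in which both libraries had 3 or fewer UMIs of a gene gave no value. Both the number of cells, 10 and 12, and their depth limit the library comparisons, since thinning lowered every count of calls.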

Other observations

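Few genes of the phagocyte oxidase and of Fc signalling were called. Of 7 NADPH oxidase genes, Ncf4 was called higher in the knockout (133 against 35.7 CPM, from 14 UMIs), and Cyba (1777 against 1017 CPM) and Cybb (1283 against 771 CPM) lay above the young control without being called. The signalling adaptors Tyrobp and Fcer1g stood at 1430, 1663 and 1474 CPM and at 1490, 1834 and 1427 CPM (young control, knockout, old control). The knockout intervals of their ratios ran from 0.990 to 1.36 and from 1.06 to 1.43.

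Lysosome genes had 1 of 18 called higher (Ctsc) and 1 lower (Cd63) in knockout members and 0 in old ones, with medians of 0.03 and −0.13. MHC class I (13 tested), glycolysis and hypoxia (11) and cell cycle genes (4) had 0 called in both comparisons. Apoe, the lipid carrier, differed in direction between cell classes of the knockout library: it stood at 504 against 1189 CPM in Lyz2-high C1q-low cells and at 21601 against 3213 CPM in C1q-positive cells. In the Lyz2-high C1q-low cells it was found in 4 of 10 knockout and 181 of 200 young control cells, and other young control barcodes held 4932 CPM.

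The knockout held 4 members with Ly6c2 and 6 without, and some of the variable genes were found in only 1 of these 2 sets. Others were found in both, such as Il1b (1770 CPM in the 4 cells and 3921 in the 6), Cxcl2 (1321 and 6018) and Fn1 (646 and 1408). The 4 cells held 5255 CPM of Plac8, 1855 CPM of Chil3 and 0 of Mgl2 and Mrc1, while the 6 cells held 1810 CPM of Mgl2, 503 CPM of Mrc1 and 0 of Plac8 and Chil3. Lyz1 stood at 4409 CPM in the 6 cells and 0 in the 4. In the young control these genes differed in the same direction but were found on both sides. Plac8 stood at 2559 CPM with Ly6c2 and at 151 CPM (22 cells) in cells with neither Ly6c2 nor 10 Retnla UMIs. Mgl2 stood at 161 CPM (11 cells) with Ly6c2 and at 958 CPM in cells with neither.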
